A study of Mus musculus with 43 samples.

Results

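DNA replication and S-phase genes were followed as a set of 44 mouse genes that encode the replicative helicase and the factors that load and start it, the DNA polymerases and primase, the sliding clamp and its loader, the single-strand binding complex, the enzymes of nucleotide supply, and factors of Okazaki fragment processing, chromatin assembly, histone mRNA and licensing control. Members were taken by gene symbol from 8 tables of RNA-seq expression values, and 42 of the 44 were found in 7 tables, each of which lists 46683 gene names. The expression of Cdt1 and Gins2 was not analysed here. The remaining table, of Ddx18 knockdown in embryonic stem cells, lists 4769 names, 25 of them members. The rule that makes up the set uses gene function and no measured value.

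The study concerns the nucleolar DEAD-box protein DDX18, and compared its loss with drugs that act on ribosome production in mouse embryonic stem cells (ESCs) and early embryos. Of the 43 samples of the series, 37 were RNA-seq libraries of polyadenylated RNA. Ddx18 knockdown (KD) was set against control cells in ESCs, in EZH2 knockout (KO) ESCs and in p53 KO ESCs, with 2 libraries per group; the EZH2 KO and p53 KO lines lack their gene in the control cells too. Ddx18 KO embryos at E3.5, the blastocyst stage, were set against wild-type (WT) embryos, 2 libraries each, from C57/B6 mothers that were heterozygous for Ddx18. ESCs, of the CJ9 line and strain 129S1/SVImJ, received actinomycin D (ActD), an intercalator that at low dose acts mainly on RNA polymerase I, at 0, 5 or 10 ng/ml in 3, 2 and 2 libraries. ActD at 10 ng/ml was also compared with 0 ng/ml in p53 KO ESCs, 2 libraries each, which the titles call p53 KO and the source names CJ9. CX-5461 at 1 µM, an inhibitor of RNA polymerase I, was compared with 0 µM (3 libraries each), and cycloheximide (CHX) at 10 µM, an inhibitor of translation elongation, with 0 µM (2 libraries each). All ESC cultures were kept in serum with LIF and a mix of nucleosides. The way Ddx18 was knocked down, the length of the drug treatments, the number of clones behind each KO line and the number of embryos pooled are not given in the sources used here, so libraries of a group may be technical repeats and the p-values measure only the spread between them.

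Replication begins when the origin recognition complex and CDC6 load rings of MCM proteins onto origins; CDC45 and the GINS complex then turn the rings into active helicases, and polymerases alpha, delta and epsilon copy the strands behind them with the clamp PCNA. Transcription of most of these genes is switched on by E2F factors as cells enter S phase, and is held down by the retinoblastoma family of pocket proteins. The p53 pathway reaches the same genes through its target Cdkn1a, whose product p21 inhibits the cyclin-dependent kinases that inactivate the pocket proteins. Mouse ESCs are known for rapid cycling with a short first gap phase and for a large share of cells in S phase.

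Since many members moved together in several comparisons, their promoters were examined for the letters that E2F factors prefer. RefSeq promoters of 300 bases (250 before and 50 after each transcript start, build GRCm38.p6) were found for 37 of the 44 members, 42 promoters in all. One of the words TTCCCGC or TTGGCGC or TTCGCGC or TTGCCGC, on either strand and with overlaps allowed, occurred in 26 of the 42 member promoters (61.9%), against 3145 of all 32851 promoters (9.57%). The word CCAAT occurred in 57.1% of member promoters and 37.4% of all promoters, and TTTGAA, part of the cell cycle homology region, in 11.9% of member promoters and 17.9% of all promoters. A few of the promoters follow, written 5′ to 3′ on the strand of the gene in lower case with the E2F words in capitals; they belong to 3 MCM subunits with several words each, to Pola1, whose changes below differ in direction between drugs, to Chaf1b, which fell with all 3 drugs in ESCs, and to Tk1, the member that fell most with ActD.
Mcm3, chr1:20820263-20820562, minus strand: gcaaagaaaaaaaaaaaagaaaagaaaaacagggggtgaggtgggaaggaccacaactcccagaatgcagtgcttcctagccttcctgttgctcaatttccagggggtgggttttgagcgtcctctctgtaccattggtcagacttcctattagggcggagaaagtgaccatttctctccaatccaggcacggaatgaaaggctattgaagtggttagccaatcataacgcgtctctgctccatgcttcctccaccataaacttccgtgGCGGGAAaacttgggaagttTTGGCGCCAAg
Mcm5, chr8:75109259-75109558, plus strand: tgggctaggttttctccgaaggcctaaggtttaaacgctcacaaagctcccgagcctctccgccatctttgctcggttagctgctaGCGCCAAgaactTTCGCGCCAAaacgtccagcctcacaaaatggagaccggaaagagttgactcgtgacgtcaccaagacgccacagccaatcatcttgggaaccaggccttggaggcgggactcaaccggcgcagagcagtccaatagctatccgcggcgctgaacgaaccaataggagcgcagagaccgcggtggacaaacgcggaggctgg
Mcm6, chr1:128359656-128359955, minus strand: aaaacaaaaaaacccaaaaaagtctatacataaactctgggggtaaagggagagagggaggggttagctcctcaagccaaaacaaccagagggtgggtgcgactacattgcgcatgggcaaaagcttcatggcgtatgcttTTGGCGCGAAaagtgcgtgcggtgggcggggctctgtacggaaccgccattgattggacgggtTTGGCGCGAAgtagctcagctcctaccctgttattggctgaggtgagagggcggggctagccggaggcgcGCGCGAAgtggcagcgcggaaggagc
Pola1, chrX:93632106-93632405, minus strand: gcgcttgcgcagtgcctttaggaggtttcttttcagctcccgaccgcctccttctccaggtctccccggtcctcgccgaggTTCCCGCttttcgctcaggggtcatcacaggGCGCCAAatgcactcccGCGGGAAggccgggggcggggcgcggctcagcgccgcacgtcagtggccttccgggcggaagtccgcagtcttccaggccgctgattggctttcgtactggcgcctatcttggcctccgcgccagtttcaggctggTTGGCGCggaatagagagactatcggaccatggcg
Chaf1b, chr16:93883651-93883950, plus strand: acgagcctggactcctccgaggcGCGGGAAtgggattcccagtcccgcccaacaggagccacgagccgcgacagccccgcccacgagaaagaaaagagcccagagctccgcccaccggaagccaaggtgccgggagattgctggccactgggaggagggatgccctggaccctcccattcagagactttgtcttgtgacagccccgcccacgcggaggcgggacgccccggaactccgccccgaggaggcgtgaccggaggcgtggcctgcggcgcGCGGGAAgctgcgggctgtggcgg
Tk1, chr11:117825965-117826264, minus strand: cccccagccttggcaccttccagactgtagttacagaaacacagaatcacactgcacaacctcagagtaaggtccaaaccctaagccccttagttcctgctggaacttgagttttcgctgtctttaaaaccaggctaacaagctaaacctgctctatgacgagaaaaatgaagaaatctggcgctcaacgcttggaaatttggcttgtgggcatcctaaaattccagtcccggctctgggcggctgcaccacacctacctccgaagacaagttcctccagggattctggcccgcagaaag
Mcm6 had 5 words, Pola1 had 4, Mcm3 and Mcm5 had 3 each, some of them overlapping on opposite strands, Chaf1b had 2 and Tk1 had none in this window. Pcna, Mcm10, Mcm2, Pola2 and Pold2, which are like Tk1, Pola1 and Chaf1b among the members most often called lower below, also had 0. A relation between the words and the changes was not tested. A word is a match of letters only, and its use as a binding site was not measured.

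Expression is given as FPKM (fragments per kilobase of transcript per number of mapped fragments). Levels of different genes can therefore be set side by side within a table. Levels were compared between groups of 1 table only, apart from Cdkn1a in untreated p53 KO ESCs and untreated ESCs below. Mapped reads were recorded for 19 libraries and ranged from 7112852 to 22983179; the depth of the others is unknown. Ddx18 averaged 9.23 ± 1.001 FPKM in KD ESCs and 86.9 ± 3.15 FPKM in control ESCs, 16.5 ± 1.37 in KD and 85.98 ± 4.88 in control EZH2 KO ESCs, 3.47 ± 0.555 in KD and 43.3 ± 9.08 in control p53 KO ESCs, and 2.91 ± 0.075 in KO and 16.5 ± 7.75 in WT embryos (SD, n = 2 each). Cdkn1a, the p53 target, averaged 6.199 ± 0.339 FPKM in untreated p53 KO ESCs (SD, n = 2) and 29.8 ± 2.58 FPKM in untreated ESCs (SD, n = 3), in separate tables, and Ezh2 averaged 3.304 ± 0.771 FPKM in KD and 3.52 ± 0.844 FPKM in control EZH2 KO ESCs (SD, n = 2 each), while Trp53 transcripts were still present in both p53 KO tables, so their level does not check that label. Markers of pluripotent cells were all at or above 1 FPKM in every ESC library of the 7 full tables. Each change below is a log2 change of FPKM + 1, fitted with limma over all genes of the table, and a gene was called when its Benjamini-Hochberg adjusted p over all tested genes was under 0.05.

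Knockdown of Ddx18 in ESCs left every listed replication gene at a lower level than in control ESCs. All 25 members fell, 0 rose, and no member's KD libraries overlapped the control libraries, which held for every tested gene of this table (43.7% lower and 56.3% higher in both KD libraries). Across the table, 42.6% of the 4695 tested genes fell and 55.2% rose, and 4595 of the 4695 were called in all; being listed is therefore not independent of the change, and the 17 members that are not listed have no value here. The median change of the 25 members was -0.63 on the log2 scale, beside 0.30 for all tested genes. The summed FPKM of the 4 listed trophectoderm markers was 137 to 169 in KD ESCs and 30.5 to 34.1 in control ESCs, and that of the 4 listed pluripotency markers 869.8 to 895 in KD ESCs and 1391 to 1413 in control ESCs; their part in the members' falls was not tested. Per the lane codes recorded with the mapped reads, both control libraries and KD replicate 1 were of lane 7, and KD replicate 2 of lanes 2 and 3. The part of lane was not tested. Fewer cells in S phase and less RNA per cell of each gene cannot be told apart in bulk libraries such as these.

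Among the nucleotide-supply enzymes, Tk1, thymidine kinase of the salvage pathway, had 14.9 and 17.3 FPKM in KD ESCs, against 44.9 and 46.1 FPKM in control ESCs. The KD libraries stood at about 35.4% of the control mean, a log2 change of -1.45 ± 0.08 (SE, adjusted p = 1e-05), the largest among the members. Dut, the dUTPase that keeps uracil out of DNA, had 80.2 and 64.7 FPKM in KD ESCs and 134 and 128 FPKM in control ESCs, a change of -0.85 ± 0.10 (SE, adjusted p = 0.00015). Among the licensing factors, Cdc6 had 15.5 and 13.9 FPKM in KD ESCs, against 37.7 and 37.9 FPKM in control ESCs, both KD libraries far below the controls (-1.31 ± 0.07 SE, adjusted p = 9.3e-06). Mcm10, which is needed for helicase activation, stood at 54.3% of its control level in KD ESCs, with a change of -0.86 ± 0.07 (SE, adjusted p = 4.8e-05).

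The 5 listed subunits of the MCM helicase (Mcm2 to Mcm6) fell by 0.43 (Mcm5) to 0.86 (Mcm6) on the log2 scale. Mcm6 had 55.03 and 43.95 FPKM in KD ESCs, against 89.5 and 90.3 FPKM in control ESCs. Mcm4 had 43.2 and 39.2 FPKM in KD ESCs and 71.6 and 71.7 FPKM in control ESCs, so the replicates of each group lay close together. At the fork, Pcna, the sliding clamp, had 81.01 and 76.5 FPKM in KD ESCs and 151 and 148 FPKM in control ESCs, and Rpa2, a subunit of the single-strand binding complex, had 24.3 and 25.1 FPKM in KD ESCs and 47.9 and 49.1 FPKM in control ESCs. Every KD library of both genes lay below every control library, with changes of -0.91 ± 0.05 (SE, adjusted p = 1.2e-05) for Pcna and -0.95 ± 0.05 (SE, adjusted p = 1.2e-05) for Rpa2. Chaf1b, the CAF-1 subunit that deposits new histones, changed by -0.97 ± 0.07 (SE, adjusted p = 2.7e-05), Pold2, an accessory subunit of polymerase delta, by -0.78 ± 0.06 (SE, adjusted p = 4.3e-05), and Pola1, the catalytic subunit of polymerase alpha, by -0.66 ± 0.09 (SE, adjusted p = 0.00033). Gins1 and Gins4, of the GINS complex, changed by -0.56 and -0.30, the Gins4 value being the smallest of the 25. Rfc2, a clamp-loader subunit, changed by -0.56, Lig1, the ligase that seals Okazaki fragments, by -0.49, and Slbp, which binds histone mRNA, by -0.49.

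In EZH2 KO ESCs, knockdown lowered some of the replication genes. Of the 42 members tested, 8 fell and 0 rose, where 2.18% of all 11773 genes fell and 6.30% rose. The 8 were Gins1, Pcna, Rpa2, Mcm10, Mcm4, Tk1, Rrm2 and Mcm2, and all 8 are listed in the ESC table, where nearly every gene was called; whether the effect differs between EZH2 KO ESCs and ESCs was not tested. The median of the 42 members was -0.25, beside 0.09 for all genes, and 25 members had both KD libraries below both control libraries, 4 above, and 13 overlapped, where 20.7% of all genes lay below and 36.7% above. Gins1 had 3.92 and 5.796 FPKM in KD EZH2 KO ESCs, against 11.2 and 10.2 FPKM in control EZH2 KO ESCs, a change of -1.02 ± 0.20 (SE, adjusted p = 0.037). Pcna had 80.1 and 88.1 FPKM in KD and 146 and 134 FPKM in control EZH2 KO ESCs (-0.73 ± 0.10 SE, adjusted p = 0.014). Mcm4 had 40.1 and 40.3 FPKM in KD and 64.9 and 60.6 FPKM in control EZH2 KO ESCs, the KD libraries at 64.1% of the control mean (-0.63 ± 0.10 SE, adjusted p = 0.02). Each of these 3 genes was lower in both KD libraries than in either control. Rpa2 changed by -0.66, Mcm10 by -0.64, Tk1 by -0.57, Rrm2, the small subunit of ribonucleotide reductase, by -0.46 and Mcm2 by -0.41. None of the 9 polymerase and primase genes passed, and Pold2 averaged 54.7 ± 0.991 FPKM in KD and 68.8 ± 10.1 FPKM in control EZH2 KO ESCs (SD, n = 2 each, adjusted p = 0.17). Lig1 (adjusted p = 0.29) and Chaf1a (adjusted p = 0.13) did not pass. Leaving out any 1 of the 4 libraries left at most 1 call, and without a filter on low values 0 passed. The 7 trophectoderm markers summed to 92.2 to 96.01 FPKM in KD and 34.8 to 41.96 FPKM in control EZH2 KO ESCs, and the 8 pluripotency markers to 2917 to 2969 FPKM in KD and 3522 to 3635 FPKM in control EZH2 KO ESCs; Elf5 was at 0 in both KD and 1 control library, and Cdx2 in 1 of each. Their part was not tested.

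In p53 KO ESCs, knockdown moved no replication gene past the threshold. Of 41 members tested, 0 were called by limma, where 0.636% of all 11636 genes fell and 2.63% rose; 5 members had an unadjusted p under 0.05, 2 of them higher and 3 lower, where 26.0% of all genes were higher at that threshold and 5.22% lower. Over all genes 306 were called higher and 74 lower, and after rescaling each library to the same median ratio 38 higher and 130 lower; 0 genes in all were called with a pseudocount of 0.1, without a filter on low values, with the replicate block or without any 1 library. The median of the members was 0.06, beside 0.34 for all genes, and after rescaling it was -0.31, beside 0.01. Of the 41 members 8 lay below, 7 above and 26 overlapped between the groups, where 11.8% of all genes lay below and 49.4% above. Tk1 had 27.6 and 17.6 FPKM in KD p53 KO ESCs, against 66.99 and 46.1 FPKM in control p53 KO ESCs. Both KD libraries lay below both controls, with a change of -1.30 ± 0.30 (SE, adjusted p = 0.061); after rescaling it was -1.69 (adjusted p = 0.048), the single member that passed then. Pcna had 134 and 92.9 FPKM in KD and 170.3 and 161 FPKM in control p53 KO ESCs (-0.57 ± 0.23 SE, adjusted p = 0.15). Mcm3 had 144 and 128 FPKM in KD and 163 and 172 FPKM in control p53 KO ESCs (-0.30 ± 0.18 SE, adjusted p = 0.3). Mcm10 had 42.3 and 34.02 FPKM in KD and 32.3 and 32.1 FPKM in control p53 KO ESCs (0.23 ± 0.20 SE, adjusted p = 0.48), and its sign turned after rescaling (-0.17). The KD libraries of this line also differed from each other. Cdc45, the helicase activator, had 35.7 and 16.6 FPKM in the KD and 11.3 and 16.8 FPKM in the control libraries. Pold2, Rpa1, Lig1 and Chaf1a overlapped between the groups, with adjusted p values from 0.61 to 0.98. The trophectoderm markers summed to 143 to 206 FPKM in KD and 84.5 to 98.9 FPKM in control p53 KO ESCs, with Elf5 at 0 in both KD libraries. The pluripotency markers summed to 2319 to 3388 FPKM in KD and 2485 to 2627 FPKM in control p53 KO ESCs. Their part was not tested.

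The effect of knockdown was then compared between lines as a difference of the within-table changes. Between p53 KO ESCs and ESCs, 5 of 25 members differed, with each change higher in p53 KO ESCs, where 10.9% of 4021 genes differed in that direction and 7.44% in the other. Mcm10 changed by 0.23 in p53 KO ESCs and by -0.86 in ESCs, a difference of 1.09 ± 0.19 (SE, adjusted p = 0.016). Chaf1b changed by 0.05 in p53 KO ESCs and -0.97 in ESCs, a difference of 1.02 ± 0.27 (SE, adjusted p = 0.044). The other 3 were Pold2 (0.95), Pola2, the accessory subunit of polymerase alpha (0.87), and Rrm1, the large subunit of ribonucleotide reductase (0.67). Tk1 was low with knockdown in both lines, and its difference of 0.15 ± 0.35 (SE, adjusted p = 0.78) did not pass. The 25 members are those of the short ESC table, where nearly every gene was called. A weaker change in the other line was therefore favoured beforehand. Of the 5 differences, 0 passed when any 1 of the 4 ESC libraries was left out or when replicate number was fitted as a block, while 13 members passed without KD replicate 2 of p53 KO ESCs. Between EZH2 KO and p53 KO ESCs, limma called 0 of 41 members, and 6 had an unadjusted p under 0.05, 1 higher and 5 lower, where 6.10% of all genes were higher at that threshold and 17.4% lower; 0.819% of all 10866 genes had a higher change in EZH2 KO ESCs and 1.13% a lower one.

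**Figure D1:**
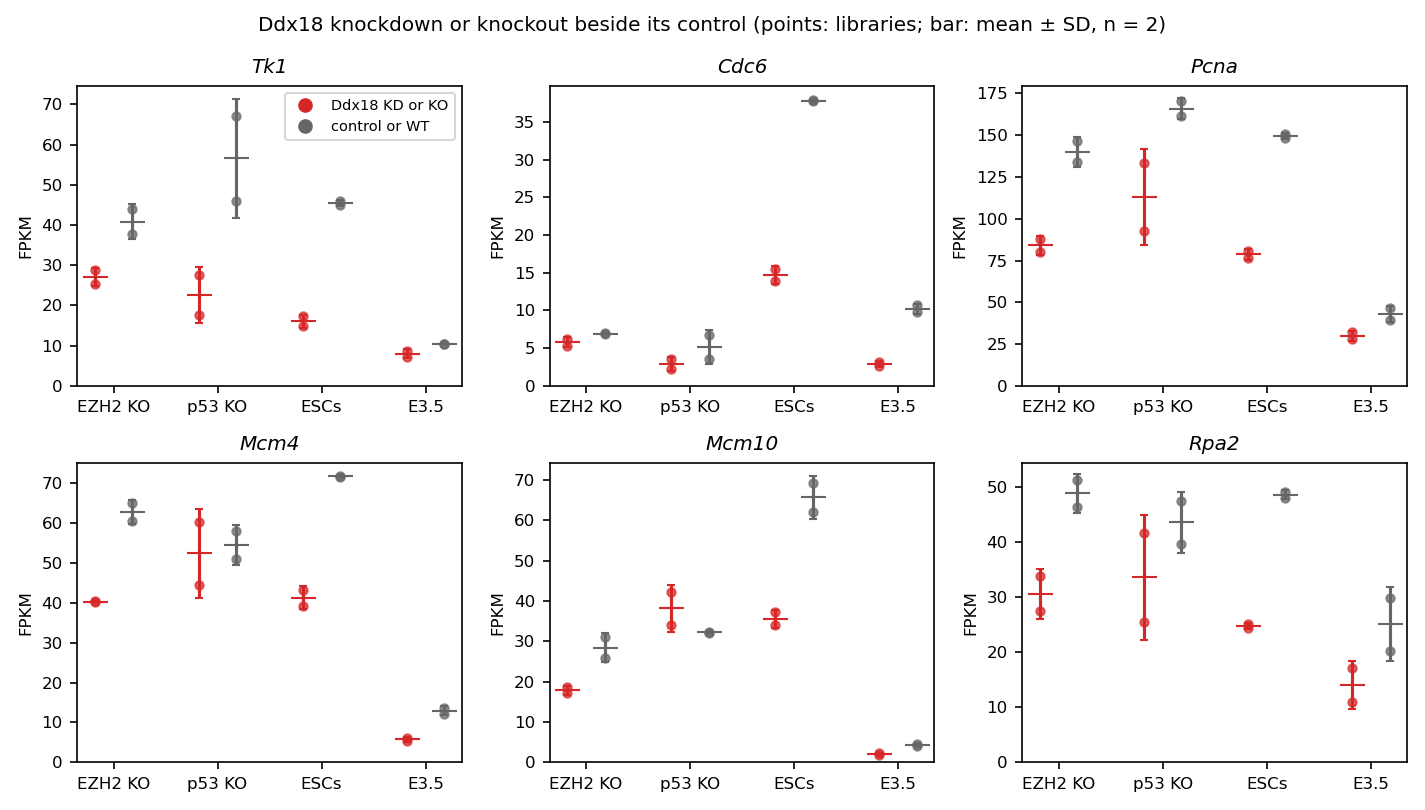
FPKM of 6 replication genes (y axis) with Ddx18 KD or KO, in red, left of its control or WT, in grey, in EZH2 KO ESCs, p53 KO ESCs, ESCs and E3.5 embryos (x axis); points are libraries, bars the mean ± SD (n = 2). Tk1 and Pcna are lower in both red than in both grey libraries of each system, while Mcm10 in p53 KO ESCs has its red libraries at 42.3 and 34.02, above the grey on the deposited scale and not after rescaling.

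In embryos that lack Ddx18, 1 of 37 replication genes tested passed the threshold. In a table that leaned lower as a whole, 27 members had both KO libraries below both WT libraries, 2 had them above and 8 overlapped, where 42.4% of all genes lay below and 14.3% above; 1 fell and 0 rose by limma, where 4.55% of all 8687 genes fell and 0.633% rose. The members' median was -0.61, beside -0.31 for all genes, and after rescaling -0.40, beside -0.03. At an unadjusted p under 0.05 13 members were lower and 0 higher, where 21.3% of all genes were lower and 4.88% higher. Fen1, the flap endonuclease of Okazaki fragments, had 6.07 and 5.19 FPKM in KO embryos, against 24.1 and 16.95 FPKM in WT embryos. It was the member that passed, at 27.4% of the WT mean (-1.68 ± 0.33 SE, adjusted p = 0.044), and it did not pass when any 1 of the 4 libraries was left out or after rescaling (adjusted p = 0.073). Slbp had 26.9 and 27.2 FPKM in KO and 53.3 and 72.8 FPKM in WT embryos (-1.18 ± 0.27 SE, adjusted p = 0.059). Rrm2, the most abundant member in embryos, had 64.7 and 54.03 FPKM in KO and 149.8 and 98.5 FPKM in WT embryos (-1.03 ± 0.29 SE, adjusted p = 0.084). Mcm4, the most abundant helicase subunit, had 5.32 and 6.19 FPKM in KO and 13.7 and 12.1 FPKM in WT embryos (-1.05 ± 0.32 SE, adjusted p = 0.1). Each of these 3 was lower in both KO libraries, with adjusted p values above the threshold. Chosen after their values were seen, Rpa1 had 1.16 and 0.817 FPKM in KO and 4.89 and 5.13 FPKM in WT embryos (adjusted p = 0.057), and Cdc6 had 2.59 and 3.21 FPKM in KO and 10.7 and 9.74 FPKM in WT embryos (adjusted p = 0.057). Pcna (adjusted p = 0.27), Orc6 (0.27) and Rpa2 (0.22) were also lower in both KO libraries without passing, Gins1 (0.52) overlapped, and Pold3 averaged 10.7 ± 1.41 FPKM in KO and 8.57 ± 1.89 FPKM in WT embryos (SD, n = 2 each). The summed level of 7 trophectoderm markers was 51.2 to 64.1 FPKM in KO embryos and 206 to 209.98 FPKM in WT embryos, and that of 8 pluripotency markers 1254 to 2044 FPKM in KO and 2495 to 3312 FPKM in WT embryos; of the trophectoderm markers, Elf5 was at 0 in both KO libraries and 1 WT library, and Cdx2 in 1 KO library. The part of this shift in the members' values was not tested.

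ActD in ESCs lowered the replication genes at both doses. At 5 ng/ml 28 of 42 members fell and 0 rose, where 16.1% of all 14522 genes fell and 32.9% rose, and at 10 ng/ml 32 of 42 fell and 0 rose, where 20.0% fell and 36.4% rose. The members' median was -0.59 at 5 ng/ml, beside 0.24 for all genes, and -0.73 at 10 ng/ml, beside 0.25. Both doses share the 3 untreated libraries. All 6 helicase subunits fell at both doses, and all 9 polymerase and primase genes fell at 10 ng/ml. The summed FPKM of the 42 members was 1963, 1897 and 1888 in the untreated libraries, 1178 and 1142 at 5 ng/ml and 1099 and 1057 at 10 ng/ml.

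Tk1 had 50.5, 34.04 and 38.3 FPKM without ActD, 10.3 and 9.93 FPKM at 5 ng/ml and 7.44 and 4.86 FPKM at 10 ng/ml. No treated library reached any untreated one, and the change was -1.89 ± 0.21 (SE, adjusted p = 0.00065) at 5 ng/ml and -2.56 ± 0.21 (SE, adjusted p = 0.00014) at 10 ng/ml. Pold1, the catalytic subunit of polymerase delta, had 33.97, 31.1 and 34.9 FPKM without ActD, 12.1 and 11.7 FPKM at 5 ng/ml and 6.71 and 7.75 FPKM at 10 ng/ml. Its 3 groups did not overlap, the level at 10 ng/ml was 21.7% of the untreated mean (-2.06 ± 0.10 SE, adjusted p = 1.8e-05), and it was the 1 member called between the doses (-0.65 ± 0.11 SE, adjusted p = 0.042), where 1.47% of all genes were lower at 10 than at 5 ng/ml and 1.47% higher. Pold2, its partner subunit, had 60.6, 59.2 and 57.6 FPKM without ActD, 20.1 and 18.3 FPKM at 5 ng/ml and 14.5 and 14.02 FPKM at 10 ng/ml, with a change of -1.98 ± 0.08 (SE, adjusted p = 9.1e-06) at 10 ng/ml; between the doses it missed the threshold (adjusted p = 0.06). The call of Pold1 between doses was lost when any 1 of the 4 treated libraries was left out. The most abundant member of each other role did not pass between the doses, with adjusted p values of 0.097 for Rpa1, 0.12 for Rrm2, 0.19 for Lig1, 0.23 for Slbp, 0.34 for Mcm5, 0.41 for Pcna, 0.61 for Gins4 and 0.95 for Orc6.

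Of the licensing and firing factors, Mcm10 had 41.6, 51.01 and 52.2 FPKM without ActD, 16.3 and 16.1 FPKM at 5 ng/ml and 14.7 and 15.6 FPKM at 10 ng/ml. Its change was -1.51 at 5 ng/ml and -1.60 ± 0.11 (SE, adjusted p = 7.2e-05) at 10 ng/ml. Cdc6 had 28.8, 23.3 and 21.9 FPKM without ActD, 8.72 and 8.81 FPKM at 5 ng/ml and 8.39 and 8.62 FPKM at 10 ng/ml (-1.42 ± 0.13 SE, adjusted p = 2e-04). Of the helicase subunits Mcm7 had 162, 163 and 167 FPKM without ActD, 105 and 91.3 FPKM at 5 ng/ml and 74.9 and 76.2 FPKM at 10 ng/ml (-1.11 ± 0.07 SE, adjusted p = 4.9e-05). Mcm2 stood at 56.2% of its untreated mean at 5 ng/ml and 49.9% at 10 ng/ml. Pcna had 98.6, 100.2 and 95.1 FPKM without ActD, 49.3 and 46.9 FPKM at 5 ng/ml and 44.5 and 43.9 FPKM at 10 ng/ml (-1.13 ± 0.06 SE, adjusted p = 2.4e-05), and every treated library lay below every untreated one. Rpa1, the large subunit of the single-strand binding complex, had 71.2, 64.2 and 65.99 FPKM without ActD, 32.6 and 32.6 FPKM at 5 ng/ml and 26.1 and 26.2 FPKM at 10 ng/ml (-1.32 ± 0.07 SE, adjusted p = 2.4e-05).

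Chaf1b had 44.2, 26.1 and 26.9 FPKM without ActD, 7.59 and 8.37 FPKM at 5 ng/ml and 8.105 and 8.05 FPKM at 10 ng/ml. Its change was -1.86 at 5 ng/ml and -1.84 ± 0.23 (SE, adjusted p = 0.00074) at 10 ng/ml. Its partner Chaf1a, the large CAF-1 subunit, had 15.3, 22.2 and 22.997 FPKM without ActD, 22.6 and 21.4 FPKM at 5 ng/ml and 23.6 and 24.97 FPKM at 10 ng/ml, and was not called (0.28 ± 0.18 SE, adjusted p = 0.22). Dtl, the substrate receptor of the CRL4 ubiquitin ligase that acts on licensing factors in S phase, changed by -1.18 ± 0.10 (SE, adjusted p = 0.00013) at 10 ng/ml, Dut by -1.07 ± 0.07 (SE, adjusted p = 6.2e-05) and Lig1 by -1.15 ± 0.07 (SE, adjusted p = 4.2e-05). Mcm4 changed by -0.88 and Gins4 by -0.38 at 5 ng/ml. Gins1 changed by -0.64, Rfc2 by -0.75 and Cdc45 by -0.80 at 10 ng/ml. The 10 members not called at 10 ng/ml were Gins3, Rpa3, Rfc4, Fen1, Orc6, Rpa2, Slbp, Tyms, Rrm2 and Chaf1a, among them subunits whose partners fell, such as Rpa2 and Rpa3 beside Rpa1. Rrm2 had 92.6, 74.5 and 76.7 FPKM without ActD, 68.2 and 68.5 FPKM at 5 ng/ml and 95.5 and 87.8 FPKM at 10 ng/ml, and Tyms, thymidylate synthase, had 19.9, 17.2 and 15.2 FPKM without ActD and 19.4 and 19.2 FPKM at 10 ng/ml. At 5 ng/ml both Rrm2 libraries lay below the untreated ones, and at 10 ng/ml Rrm2 and Tyms overlapped with the untreated libraries.

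The untreated library numbered 27 stood apart, with a Pearson correlation of 0.904 and 0.902 with the other 2 untreated libraries, which correlated at 0.96 with each other, and with the lowest depth of the 19 recorded. Its Cdc45 level was 10.9 FPKM, against 22.7 and 17.7 FPKM in the others. Without it, 30 members were called at 5 ng/ml and 35 at 10 ng/ml, 33 lower and 2 higher. Lane codes in the column names separate the untreated libraries (lanes 2 and 8) from the treated ones (lanes 1 and 7), so lane and treatment cannot be told apart. Markers moved with the dose as well: 8 pluripotency markers summed to 2712 to 2967 FPKM without ActD, 641 to 646 FPKM at 5 ng/ml and 365 FPKM in both libraries at 10 ng/ml, and 7 trophectoderm markers to 32.5 to 60.7, 773 to 785 and 582 to 607 FPKM at those doses. Elf5 was at 0 in all 3 untreated libraries, Gata3 in 2 of them, and Elf5 in 1 of 2 libraries of each ActD dose. Their part in the members' changes was not tested.

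In p53 KO ESCs few of these genes were lower with the same dose of ActD. At 10 ng/ml 11 of 42 members rose and 4 fell, where 32.7% of all 13145 genes rose and 4.33% fell, and the members' median was 0.18, beside 0.35 for all genes. The direction of the 11 depends on the scale between libraries. After rescaling each library to the same median ratio 0 rose and 10 fell, where 1401 of all 13145 genes rose and 1660 fell. The members' median was then -0.21, and 45.8% of all called genes were higher, in place of 88.3%. The 4 that fell, Pola1, Prim2, Pola2 and Rpa1, fell on both scales. Leaving out either treated library left 0 calls. The untreated libraries are of lanes 2 and 3 and both treated ones of lane 3, and without the untreated library of lane 2, so within lane 3, 6 members were called.

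The 4 that fell include 3 of the 4 subunits of polymerase alpha and primase. Pola1 had 2.31 and 3.31 FPKM in ActD-treated and 9.65 and 9.798 FPKM in untreated p53 KO ESCs. Both treated libraries were below both untreated ones, at 28.9% of the untreated mean (-1.51 ± 0.18 SE, adjusted p = 0.0057). Prim2, the large primase subunit, had 11.1 and 11.3 FPKM in treated and 17.5 and 21.3 FPKM in untreated p53 KO ESCs (-0.74 ± 0.13 SE, adjusted p = 0.013). Pola2 changed by -0.40 ± 0.11 (SE, adjusted p = 0.04) and Rpa1 by -0.34 ± 0.09 (SE, adjusted p = 0.037). Chosen after its values were seen, Prim1, the catalytic primase subunit, had a change of the other sign, with 45.98 and 43.6 FPKM in treated and 28.8 and 28.8 FPKM in untreated p53 KO ESCs (0.62, and 0.23 with adjusted p = 0.092 after rescaling). Pola1 and Prim2 are also the members with the longest loci, 327 kb and 216 kb on mm10, where the next, Pole, spans 51.2 kb. Across the 42 members the ActD change in p53 KO ESCs and the span had a Pearson r of -0.61 and a Spearman rho of -0.26, looked at after the values of Pola1 and Prim2 were seen. The Pearson r was -0.11 with the same dose in ESCs, 0.22 with CX-5461 over 39 members and 0.16 with CHX; members share libraries, so these are descriptions.

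Rpa2 had 49.7 and 45.5 FPKM in treated and 29.7 and 28.1 FPKM in untreated p53 KO ESCs, both treated libraries above both untreated ones. Its change was 0.70 ± 0.09 (SE, adjusted p = 0.0074), and 0.31 after rescaling (adjusted p = 0.074). Mcm10 had 60.2 and 54.9 FPKM in treated and 42.05 and 43.8 FPKM in untreated p53 KO ESCs (0.41 ± 0.09 SE, adjusted p = 0.022; 0.03 after rescaling). Fen1 had 30.2 and 29.5 FPKM in treated and 19.5 and 19.2 FPKM in untreated p53 KO ESCs (0.60 ± 0.09 SE, adjusted p = 0.0092; 0.22 after rescaling). The other higher calls that the naming rule takes were Orc6 (0.67), Gins3 (0.53), Rfc3 (0.58), Rpa3 (0.60) and Tyms (0.40). None of the 6 helicase subunits passed, and Mcm3 had 163 and 158 FPKM in treated and 139.7 and 143 FPKM in untreated p53 KO ESCs (adjusted p = 0.11). Slbp had 52.2 and 72.8 FPKM in treated and 46.004 and 49.02 FPKM in untreated p53 KO ESCs (adjusted p = 0.13).

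The difference between genotypes was tested directly. For 32 of 42 members the change at 10 ng/ml was higher in p53 KO ESCs than in ESCs, and for 0 lower. Of all 12347 genes 25.3% were higher in that sense and 13.8% lower. After rescaling 28 members were higher and 2, Prim2 and Rrm2, lower, where 2305 of all genes were higher and 2245 lower. The members' median difference was 0.93, beside 0.21 for all genes. Tk1 had 23.9 and 19.1 FPKM in treated and 22.7 and 18.7 FPKM in untreated p53 KO ESCs, a change of 0.05, beside -2.56 in ESCs, and the difference was 2.61 ± 0.30 (SE, adjusted p = 0.00018). Pold1 changed by 0.18 in p53 KO ESCs and -2.06 in ESCs (2.24 ± 0.14 SE, adjusted p = 9.2e-06). Pold2 changed by -0.11 in p53 KO ESCs and -1.98 in ESCs (1.87 ± 0.15 SE, adjusted p = 3.2e-05). After rescaling the changes in p53 KO ESCs were -0.33 for Tk1, -0.20 for Pold1 and -0.50 for Pold2, the last of which then passed (adjusted p = 0.043), and the differences of all 3 remained called. Mcm10 differed by 2.02 ± 0.15 (SE, adjusted p = 2.1e-05), Chaf1b by 1.97 ± 0.29 (SE, adjusted p = 0.00076), Cdc6 by 1.61 ± 0.18 (SE, adjusted p = 0.00013) and Dtl by 1.55 ± 0.16 (SE, adjusted p = 0.00011). All 6 helicase subunits differed, from 0.74 for Mcm6 to 1.28 for Mcm7, though the call of Mcm6 was lost after rescaling (0.52, adjusted p = 0.094) and in 3 of the 9 fits that left out 1 library. Pcna differed by 1.25, Dut by 1.37, Lig1 by 1.33, Rfc3 by 1.30 and Gins4 by 0.73. Pola1 fell by 1.51 in p53 KO ESCs and by 1.68 in ESCs, and its difference of 0.17 ± 0.23 (SE, adjusted p = 0.59) did not pass. The difference was also not called for Prim2, Rrm2, Chaf1a, Tyms, Rfc4, Slbp, Cdc45, Gins1 and Gins3. In p53 KO ESCs the pluripotency markers summed to 1817 to 1944 FPKM with ActD and 2089.6 to 2199 FPKM without. The trophectoderm markers summed to 54.4 to 57.8 FPKM with and 33.6 to 35.01 FPKM without, beside the larger shift of both lists in ESCs. A list of 7 fibroblast markers, 1 of them at 1 FPKM or more, summed to 44.8 to 47.4 FPKM with and 14.7 to 18.3 FPKM without. In ESCs that list summed to 27.6 to 27.7 FPKM at 10 ng/ml and 13.8 to 20.4 FPKM without. The part of these shifts in the difference was not tested.

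**Figure D2:**
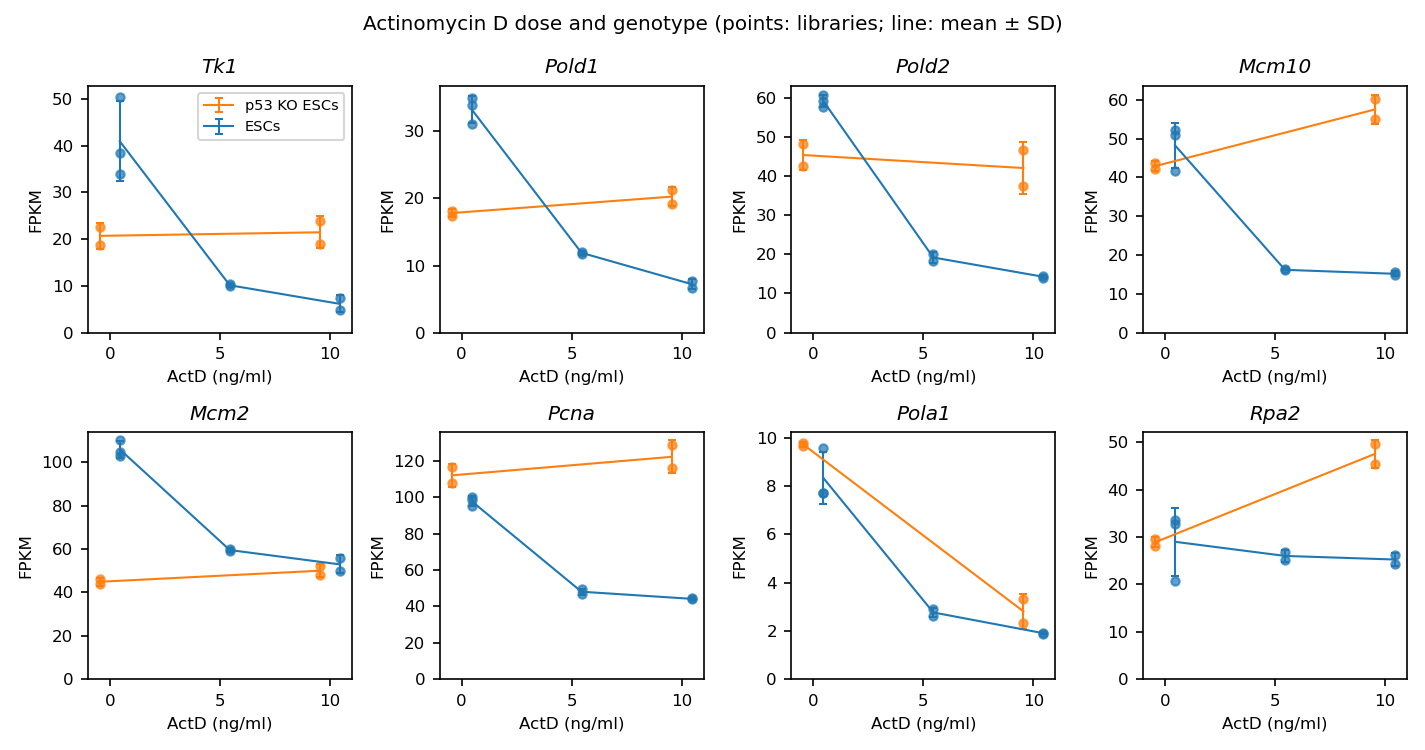
FPKM of 8 replication genes (y axis) against the ActD dose in ng/ml (x axis) in p53 KO ESCs (orange) and ESCs (blue); points are libraries and lines join the means ± SD. Tk1, Pold1, Pold2, Mcm10, Mcm2 and Pcna are lower with ActD in ESCs and closer to or above their untreated level in p53 KO ESCs on the deposited scale, Pola1 is lower in both, and Rpa2 is higher at 10 ng/ml in p53 KO ESCs, a call lost after rescaling.

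**Figure D3:**
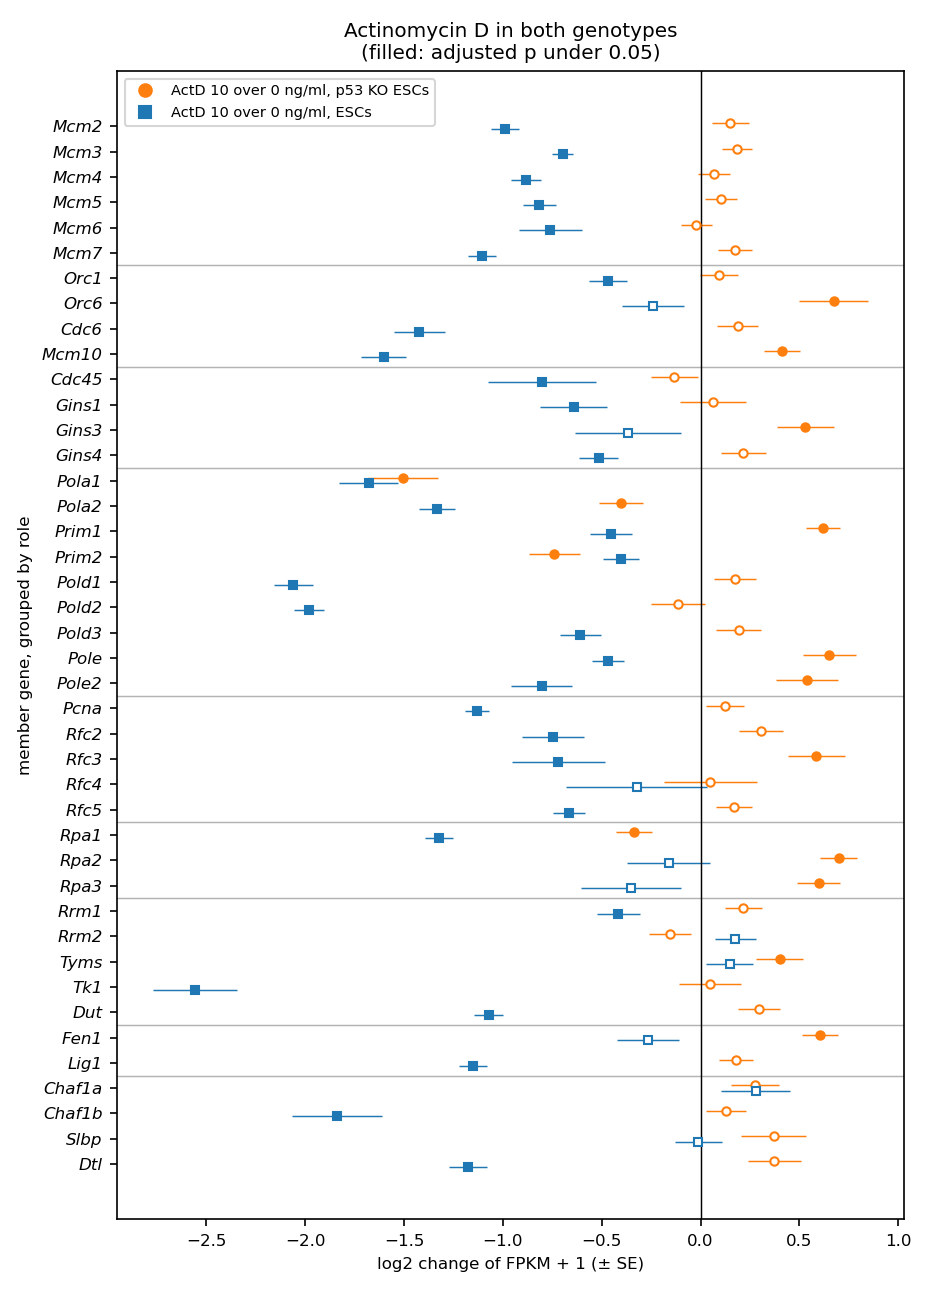
Log2 change of FPKM + 1 (x axis, ± SE) at 10 over 0 ng/ml ActD for the 42 members (y axis, grouped by role), p53 KO ESCs as orange circles and ESCs as blue squares, filled where the adjusted p is under 0.05. Most blue squares lie left of 0 with orange circles at or right of it on the deposited scale, while both markers of Pola1 lie near -1.51 and -1.68. The median of the orange circles is 0.18 on that scale and -0.21 after rescaling.

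CX-5461 lowered most of the replication genes it changed in ESCs. Of 39 members tested, 23 fell and 3 rose, where 28.9% of all 12966 genes fell and 32.9% rose, and the members' median was -0.34, beside 0.03. All 6 helicase subunits and all 3 subunits of the single-strand binding complex fell. Tk1 had 5.04, 4.795 and 4.396 FPKM with CX-5461 and 12.4, 12.1 and 11.9 FPKM without. The treated libraries averaged 39.1% of the untreated mean, and the groups did not overlap (-1.19 ± 0.07 SE, adjusted p = 1e-05). Dut had 27.3, 27.8 and 30.7 FPKM with CX-5461 and 62.98, 64.7 and 59.99 FPKM without (-1.10 ± 0.06 SE, adjusted p = 7.9e-06), and Pcna had 44.5, 45.6 and 47.5 FPKM with and 79.7, 84.8 and 91.6 FPKM without (-0.88 ± 0.06 SE, adjusted p = 2.3e-05). Pold2 had 1.33, 0.876 and 2.16 FPKM with CX-5461 and 4.64, 4.98 and 5.48 FPKM without, the largest fall among the members but at a low level (-1.33 ± 0.19 SE, adjusted p = 6e-04). Slbp had 27.1, 24.99 and 27.1 FPKM with CX-5461 and 44.5, 50.03 and 45.01 FPKM without (-0.79 ± 0.07 SE, adjusted p = 4.7e-05). In each of these genes every treated library lay below every untreated one.

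Mcm10 changed by -0.75 ± 0.07 (SE, adjusted p = 6.3e-05) with CX-5461, Pold3, a further subunit of polymerase delta, by -0.66 ± 0.07 (SE, adjusted p = 0.00021) and Mcm2 by -0.63 ± 0.07 (SE, adjusted p = 0.00015). Mcm4 had 19.2, 19.6 and 18.1 FPKM with CX-5461 and 26.7, 28.99 and 29.2 FPKM without, a change of -0.55 ± 0.06 (SE, adjusted p = 0.00021). Smaller falls were measured for Chaf1b (-0.55), Cdc6 (-0.52), Rpa3 (-0.50), Rpa2 (-0.45), Lig1 (-0.41) and Rfc5, a clamp-loader subunit (-0.36). The 3 members that rose were Gins3, Prim2 and Chaf1a. Gins3 had 13.1, 11.9 and 11.8 FPKM with CX-5461 and 8.64, 10.2 and 9.87 FPKM without (0.33 ± 0.08 SE, adjusted p = 0.01). Prim2 and Chaf1a changed by 0.32 (adjusted p = 0.034) and 0.27 (adjusted p = 0.036), and both calls were lost without a filter, as was that of Mcm7. The calls of Mcm7 and Prim2 were also lost with the replicate block, and that of Mcm7 in most fits that left out 1 library. Cdc45, Pold1 and Pole2 were too low to test in this table, where the highest group mean among them was 1.09 FPKM, of Pold1 without CX-5461. The pluripotency markers summed to 730.2 to 827 FPKM with CX-5461 and 1727 to 1882 FPKM without, and the trophectoderm markers to 147 to 151 FPKM with and 13.5 to 15.7 FPKM without, with Elf5 at 0 in 2 treated and all 3 untreated libraries; their part was not tested. All 6 libraries carry the code of the same lane.

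CHX split the set. Of 42 members, 19 rose and 10 fell, where 33.2% of all 13257 genes rose and 19.8% fell, and the members' median of 0.11 was close to the 0.12 of all genes. After rescaling 14 rose and 15 fell, where 3727 of all 13257 genes rose and 3320 fell. All 6 helicase subunits rose, and 5 of them also after rescaling, all but Mcm7. Mcm4 had 139 and 139.9 FPKM with CHX and 66.97 and 64.2 FPKM without. Both treated libraries were at 213% of the untreated mean (1.08 ± 0.06 SE, adjusted p = 0.00048). Mcm2 had 193 and 199 FPKM with CHX and 97.3 and 88.2 FPKM without (1.07 ± 0.07 SE, adjusted p = 0.00073), and Mcm3 had 264 and 269 FPKM with and 142 and 146 FPKM without (0.88 ± 0.06 SE, adjusted p = 0.00067). Mcm7 rose least of the 6, with a change of 0.31 and of 0.17 after rescaling (adjusted p = 0.07). Tyms had 35.8 and 41.1 FPKM with CHX and 16.6 and 16.1 FPKM without, the largest rise among the members (1.18 ± 0.10 SE, adjusted p = 0.001). Pola1 had 22.4 and 20.8 FPKM with CHX and 11.1 and 9.403 FPKM without (1.01 ± 0.11 SE, adjusted p = 0.0023), Rfc2 changed by 0.98 ± 0.09 (SE, adjusted p = 0.0014) and Rpa2 by 0.74 ± 0.07 (SE, adjusted p = 0.0017). Each of these genes had both treated libraries above both untreated ones.

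Other members fell with CHX, often partners of those that rose. Pold2 had 22.1 and 19.5 FPKM with CHX and 47.6 and 48.1 FPKM without (-1.17 ± 0.09 SE, adjusted p = 0.00085), while Pold1, its catalytic partner, had 33.5 and 35.1 FPKM with and 23.4 and 22.3 FPKM without (0.57 ± 0.08 SE, adjusted p = 0.0039). Chaf1b had 15.3 and 18.6 FPKM with CHX and 32.5 and 37.3 FPKM without (-1.002 ± 0.13 SE, adjusted p = 0.0033), while Chaf1a changed by 0.45 ± 0.12 (SE, adjusted p = 0.026), a call lost after rescaling. Orc1, the large subunit of the origin recognition complex, had 14.2 and 14.4 FPKM with CHX and 25.1 and 26.02 FPKM without (-0.79 ± 0.08 SE, adjusted p = 0.0017), while Orc6 changed by 0.57 (0.44 after rescaling, adjusted p = 0.062). The 2 subunits of each pair thus moved in opposite directions in the same libraries. Rfc3 changed by -0.88 ± 0.14 (SE, adjusted p = 0.0067) beside the rise of Rfc2, Tk1 by -0.76 ± 0.07 (SE, adjusted p = 0.0016) and Fen1 by -0.36 ± 0.10 (SE, adjusted p = 0.035), and Gins3 by 0.59 ± 0.14 (SE, adjusted p = 0.019). Chosen after its value was seen, Pole2, the accessory subunit of polymerase epsilon, changed by -0.98 while its catalytic partner Pole changed by 0.71. In the 2 libraries of lane 2, 1 with CHX and 1 without, all 29 called members kept their sign and 39 of 42 members did, with a median of 0.12. Both libraries are among those behind the calls, so the kept signs are not an independent check. A test within the lane is not possible with 1 library of each. The pluripotency markers summed to 1418 to 1437 FPKM with CHX and 2424 to 2482 FPKM without, and the trophectoderm markers to 20.4 to 25.3 FPKM with and 28.2 to 33.2 FPKM without; their part was not tested.

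**Figure D4:**
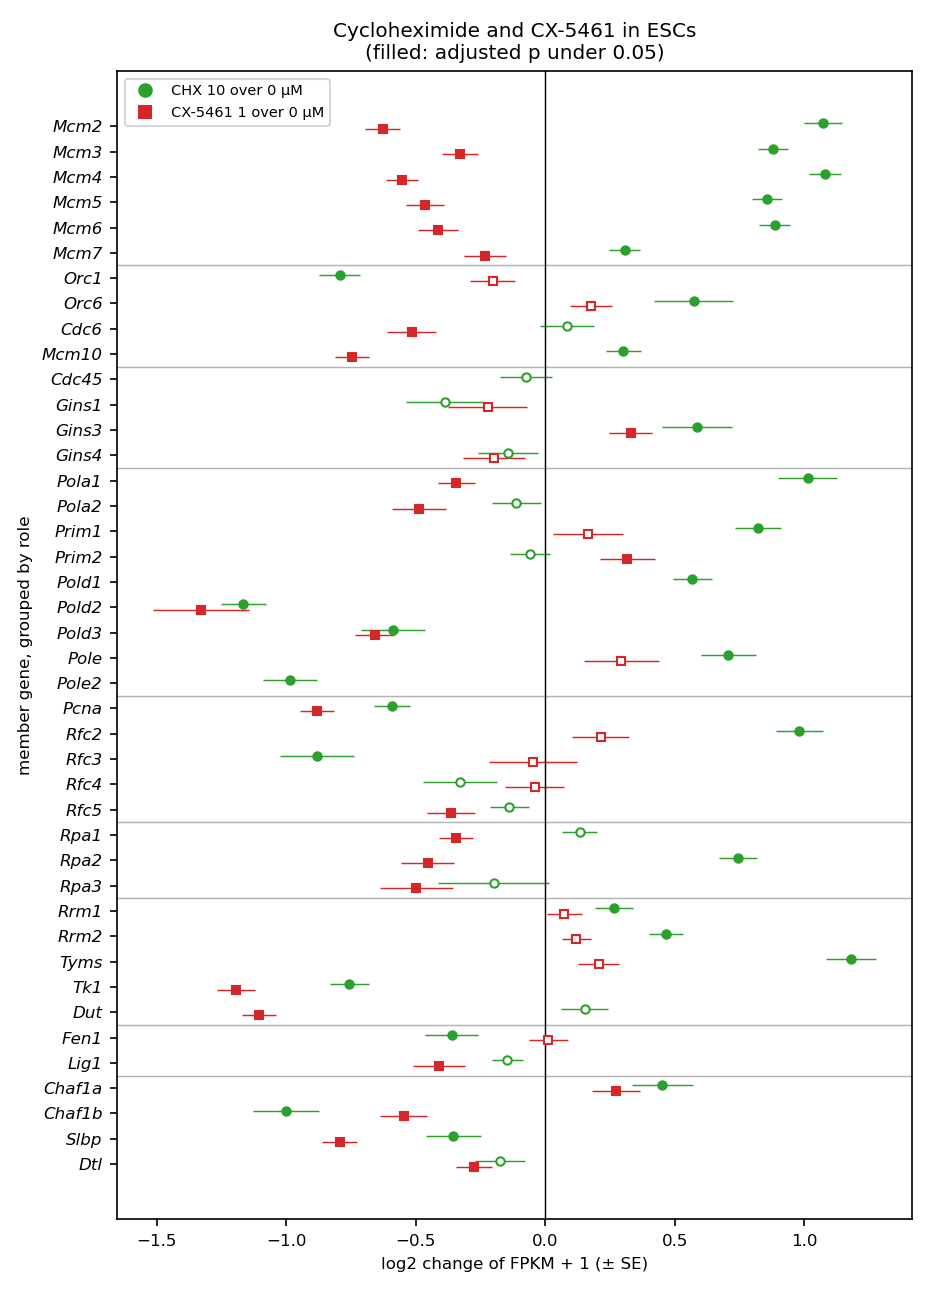
Log2 change of FPKM + 1 (x axis, ± SE) for the members (y axis, grouped by role) with CHX at 10 over 0 µM (green circles) and CX-5461 at 1 over 0 µM (red squares) in ESCs, filled where the adjusted p is under 0.05. The 6 helicase subunits lie right of 0 with CHX and left of it with CX-5461, while Pold2, Pold3, Pcna, Tk1 and Chaf1b lie left of it with both.

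Several members were called in opposite directions with different drugs. Mcm2 to Mcm7, Mcm10 and Pola1 (8 members) fell with ActD at 10 ng/ml and with CX-5461 and rose with CHX; after rescaling the CHX calls of Mcm7 and Mcm10 were lost (0.16, adjusted p = 0.1, for Mcm10), which left 6. The CX-5461 call of Mcm7 was lost without a filter and with the replicate block. Pold2, Pold3, Pcna, Tk1 and Chaf1b (5 members) fell with all 3, and 8 members, these 5 among them, after rescaling. Of the members tested in both tables, the 20 that fell with both CX-5461 and ActD at 10 ng/ml were 87.0% of the 23 lower with CX-5461 and 69.0% of the 29 lower with ActD. Within the 25 members listed in the knockdown table, 15 fell with Ddx18 KD in ESCs, with ActD at 10 ng/ml and with CX-5461. Nearly every gene of the knockdown table was called. Over all tested genes 20.0% fell with ActD at 10 ng/ml, 28.9% fell with CX-5461, and 33.2% rose and 19.8% fell with CHX. The share of all genes with each joint pattern was not counted. Pcna and Tk1 were called lower in 6 of the 9 comparisons with an untreated, control or WT group, more often than any other member, and each was called higher in 0; after rescaling it was 6 for Pcna, 7 for Tk1 and also 6 for Mcm4, Mcm5, Mcm6 and Pold2. Chaf1b, Mcm10, Mcm2, Mcm4, Pola1, Pola2 and Pold2 fell in 5. Gins3 rose in 3 and fell in 0, Tyms and Chaf1a rose in 2 and fell in 0, and Rfc4 was called in 0 of the 8 in which it was tested; after rescaling Gins3 and Tyms rose in 2, Chaf1a rose in 1 and Rfc4 fell in 1. The 2 ActD doses in ESCs share their untreated libraries, so these counts are not over independent comparisons. The share of all genes called in as many comparisons was not counted. The comparisons include KD in ESCs, where nearly every gene was called. They also include KD in EZH2 KO ESCs, where the calls of Pcna and Tk1 were lost without a filter, and that of Tk1 with a pseudocount of 0.1.

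**Figure D5:**
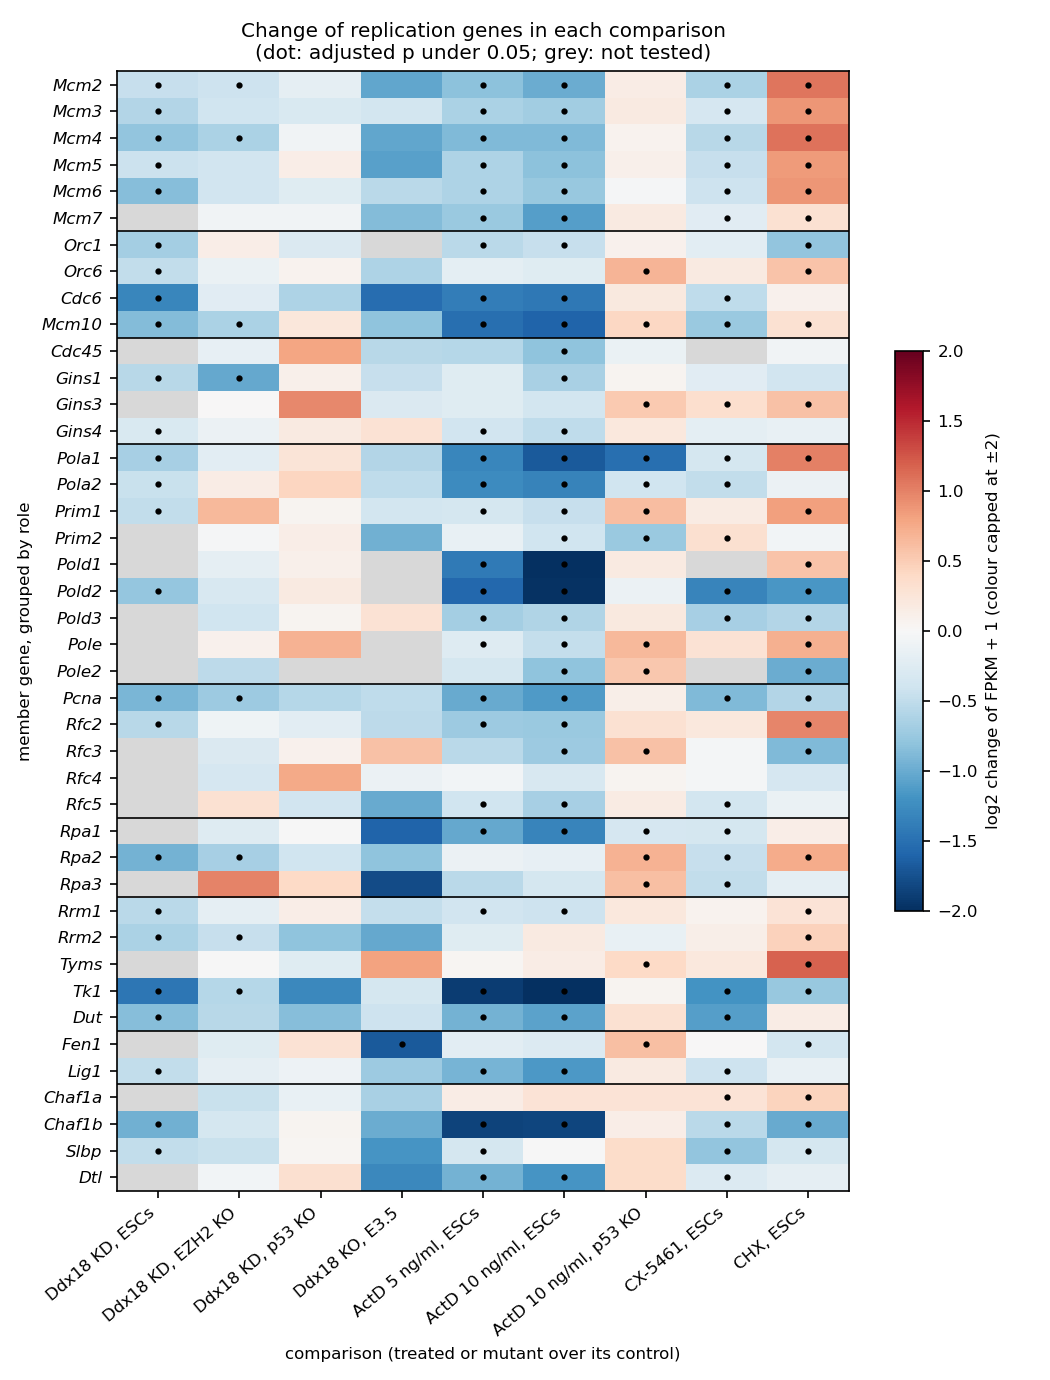
Log2 change of FPKM + 1 (colour, capped at 2 in either direction) of the 42 members (rows, grouped by role) in 9 comparisons (columns, treated or mutant over its control); dots mark an adjusted p under 0.05 and grey cells were not tested. Blue fills most cells with Ddx18 KD in ESCs, ActD in ESCs and CX-5461, the column of ActD in p53 KO ESCs is mostly pale red on the deposited scale (median 0.18, and -0.21 after rescaling) with Pola1 in blue, and the CHX column holds both colours with the 6 helicase subunits in red.

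Other genes of the S-phase programme, 87 in all and none of them members, gave the context of these counts. With Ddx18 KD in ESCs 7 rose and 44 fell of 51 listed, and in EZH2 KO ESCs 3 rose and 5 fell of 80. In p53 KO ESCs 1 rose and 0 fell of 78, and in KO embryos 1 rose and 2 fell of 63. Over all tested genes 55.2% rose and 42.6% fell with KD in ESCs, and 6.30% rose and 2.18% fell in EZH2 KO ESCs. In p53 KO ESCs 2.63% rose and 0.636% fell, and in KO embryos 0.633% rose and 4.55% fell. With ActD at 10 ng/ml 12 rose and 43 fell of 86 in ESCs, and 25 rose and 3 fell of 84 in p53 KO ESCs. Of all genes 36.4% rose and 20.0% fell with that dose in ESCs, and 32.7% rose and 4.33% fell in p53 KO ESCs. With CX-5461 11 rose and 38 fell of 87, where 32.9% of all genes rose and 28.9% fell. With CHX 22 rose and 24 fell of 86, where 33.2% of all genes rose and 19.8% fell. After rescaling 4 rose and 13 fell with ActD in p53 KO ESCs, where 1401 of all 13145 genes rose and 1660 fell. With CHX 15 rose and 32 fell after rescaling, where 3727 of all 13257 genes rose and 3320 fell. Cdkn1a averaged 86.5 ± 0.861 FPKM in KD and 25.98 ± 0.917 FPKM in control ESCs (1.70 ± 0.05 SE, adjusted p = 2.8e-06), 135 ± 4.44 FPKM in KD and 43.9 ± 0.363 FPKM in control EZH2 KO ESCs (1.60 ± 0.09 SE, adjusted p = 0.0021), and 40.6 ± 4.11 FPKM in KO and 4.54 ± 0.21 FPKM in WT embryos (2.90 ± 0.29 SE, adjusted p = 0.023), each SD with n = 2. It was the largest change of the wider genes in each of those comparisons, and it rose as well with ActD at 10 ng/ml, CX-5461 and CHX. In p53 KO ESCs it averaged 12.4 ± 2.79 FPKM in KD and 5.61 ± 0.525 FPKM in control cells, both KD libraries above both controls without passing (1.01 ± 0.26 SE, adjusted p = 0.07), and 8.04 ± 0.858 FPKM with ActD and 6.199 ± 0.339 FPKM without (SD, n = 2 each, adjusted p = 0.12).

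Among the regulators of the programme, Rb1, the founding pocket protein, averaged 12.6 ± 1.01 FPKM with CX-5461 and 1.21 ± 0.039 FPKM without (SD, n = 3 each; 2.62 ± 0.08 SE, adjusted p = 8.9e-07), and 6.36 ± 0.183 FPKM in KD and 1.76 ± 0.129 FPKM in control ESCs (SD, n = 2 each). Rbl2, another pocket protein, averaged 15.95 ± 1.28 FPKM with CHX and 3.396 ± 0.825 FPKM without (SD, n = 2 each, change 1.96 ± 0.17 SE, adjusted p = 0.0012). With CHX 7 of the 13 E2F and pocket protein genes rose and 1 fell, where 33.2% of all genes rose and 19.8% fell. With CX-5461 3 of the 13 rose and 4 fell, where 32.9% of all genes rose and 28.9% fell. With Ddx18 KD in ESCs 3 of 8 listed rose and 5 fell, where 55.2% of all genes rose and 42.6% fell. Ccne1, which encodes cyclin E, averaged 18.3 ± 1.28 FPKM at 10 ng/ml ActD (SD, n = 2) and 94.3 ± 4.71 FPKM without ActD (SD, n = 3) in ESCs (-2.30 ± 0.08 SE, adjusted p = 7.5e-06), and its change differed between p53 KO ESCs and ESCs by 2.69 ± 0.13 (SE, adjusted p = 2e-06). Uhrf1, which couples DNA methylation to the fork, changed by -2.10 ± 0.06 (SE, adjusted p = 4.7e-06) with ActD at 10 ng/ml in ESCs. With Ddx18 KD in EZH2 KO ESCs it changed by -0.76 ± 0.09 (SE, adjusted p = 0.01), and in KO embryos by -1.98 ± 0.37 (SE, adjusted p = 0.042), where Cdk2, the S-phase kinase, changed by -2.48 ± 0.34 (SE, adjusted p = 0.026). Donson, a replication factor, averaged 13.6 ± 1.36 FPKM with ActD and 5.34 ± 0.478 FPKM without in p53 KO ESCs (SD, n = 2 each, change 1.20 ± 0.14 SE, adjusted p = 0.0056). Gmnn, whose product geminin blocks relicensing, averaged 14.7 ± 4.07 FPKM with CHX and 55.1 ± 7.01 FPKM without (SD, n = 2 each; -1.86 ± 0.20 SE, adjusted p = 0.0021). Cdkn1b, which encodes the kinase inhibitor p27, was the 1 wider gene called with Ddx18 KD in p53 KO ESCs (1.31 ± 0.22 SE, adjusted p = 0.049). Its call was lost with a pseudocount of 0.1, without a filter, after rescaling, with the replicate block and without any 1 library. In KO embryos the calls of Cdkn1a, Uhrf1 and Cdk2 were lost with a pseudocount of 0.1, without a filter and without any 1 library, and those of Uhrf1 and Cdk2 also after rescaling. Those of Cdkn1a and Uhrf1 in EZH2 KO ESCs and of Donson in p53 KO ESCs were lost without either KD or ActD library, and that of Uhrf1 in EZH2 KO ESCs also without a filter.

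Binding of tagged DDX18 to RNA, mapped in the authors' CLIP-seq and TAP-seq regions, touched 1 member. A region in exon 12 of 17 of Mcm3, chr1:20808701-20808800 on the minus strand of mm10, was listed in both CLIP libraries and 1 of 2 TAP libraries, with authors' scores of 12, 14 and 9. The lists hold 880 and 939 regions for CLIP and 635 and 741 for TAP, and no control list was used here.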

How the data were processed

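FPKM per gene were computed by the authors and deposited in 8 tables; per the submitters' processing notes CASAVA and TopHat2 2.0.11 were used, with the builds mm9 and mm10. The program behind the FPKM, any scaling between libraries and the strand counted are not stated. Counts of mapped reads were deposited by the authors for 19 libraries. Per the deposited sheets of the ActD and CHX tables, cultures at dose 0 received DMSO. The DDX18 binding regions were deposited by the authors with 1 score each, whose meaning is not stated, on mm10 per the file headers.

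For a repeated symbol the entry with the highest mean was used. Groups of a table were compared with limma 3.58.1 (R 4.3.3, variance trend) on log2(FPKM + 1), which understates changes of low genes. A gene was tested if its FPKM reached 1 in at least the number of libraries of the smallest group. Tests were two-sided, with Benjamini-Hochberg adjustment over all tested genes and a threshold of 0.05. Differences between lines are differences of the within-table changes. Exact permutation tests cannot go below 0.333 with 2 against 2 libraries or 0.1 with 3 against 3. Alternatives were a pseudocount of 0.1, no filter, a filter at 5 FPKM, rescaling of libraries by median ratios, fitting 2 groups alone, the replicate number as a block, and leaving out each library; a crossed block and the comparison within a lane were added after seeing the data.

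The members, roles, wider genes, markers and promoter words were chosen with earlier results of these data known. Per comparison and role the text names up to 2 called members with the largest change, or the most abundant member where none was called, up to 4 called wider genes per comparison, and Ddx18, Trp53, Ezh2 and Cdkn1a; complete groups are also listed, and any other gene was chosen after its values were seen. Same-numbered libraries of the knockdown, embryo and CX-5461 tables did not deviate together, so their numbers were not taken as pairs.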

Additional observations from a re-analysis of the deposited data

Results flagged for a closer look

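The effect of Ddx18 KD differed between p53 KO ESCs and ESCs for 5 members by a test of the difference itself, all less lowered in p53 KO ESCs: Mcm10 (1.09 on the log2 scale), Chaf1b (1.02), Pold2 (0.95), Pola2 (0.87) and Rrm1 (0.67). Of all 4021 genes 10.9% differed in that direction and 7.44% in the other. The 25 members tested are those listed in the ESC table, where nearly every gene was called. A weaker change in the other line was therefore favoured beforehand. With the replicate block 0 of the 5 passed.

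The effect of ActD at 10 ng/ml differed between p53 KO ESCs and ESCs for 32 members, again by a test of the difference, all higher in p53 KO ESCs. Of all 12347 genes 25.3% differed in that direction and 13.8% in the other. After rescaling 28 members were higher and 2 lower, where 2305 of all genes were higher and 2245 lower. Of the called members named by role, the difference was 2.61 for Tk1, 2.24 for Pold1, 2.02 for Mcm10, 1.97 for Chaf1b, 1.87 for Pold2, 1.61 for Cdc6 and 1.55 for Dtl. It was 1.37 for Dut, 1.33 for Lig1, 1.30 for Rfc3, 1.28 for Mcm7, 1.25 for Pcna and 1.14 for Mcm2. It was 0.99 for Rpa1, 0.95 for Rpa3, 0.87 for Fen1 and 0.73 for Gins4. The call of Rpa3 was lost after rescaling (limma adjusted p = 0.11). In ESCs the treated and untreated libraries are of separate lanes, so lane and treatment cannot be told apart.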

How the results depend on the processing

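No member called in the comparisons changed its sign under any alternative in which it was tested. With Ddx18 KD in EZH2 KO ESCs the count of 8 was 5 with a pseudocount of 0.1 and 0 without a filter. With KD in p53 KO ESCs the count of 0 was 1 after rescaling. In KO embryos the count of 1 was 0 with a pseudocount of 0.1, without a filter and after rescaling, 4 with a filter at 5 FPKM and 3 with the replicate block. Between the ActD doses the count of 1 was 2 with a filter at 5 FPKM and 5 when the 2 groups were fitted alone. With ActD in p53 KO ESCs the count of 15 was 6 without a filter. Apart from the replicate block for the KD effect between p53 KO ESCs and ESCs, the other counts of members called in either direction stayed within 1.5 times of the reported ones under these settings. By direction, the higher calls with CX-5461 were 1 in place of 3 without a filter, and those with ActD in p53 KO ESCs 0 in place of 11 after rescaling. In all cases the cause was not tested.

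Leaving out 1 library gave 25 calls each time with KD in ESCs, 0 to 1 in EZH2 KO ESCs, 0 in p53 KO ESCs, 0 in KO embryos, 21 to 30 with ActD at 5 ng/ml, 24 to 35 at 10 ng/ml, 0 between the doses, 0 to 14 with ActD in p53 KO ESCs, 23 to 25 with CX-5461 and 19 to 24 with CHX. For the differences between lines it gave 0 to 13 for KD in p53 KO ESCs and ESCs, 0 to 2 for EZH2 KO and p53 KO ESCs, and 28 to 35 for ActD. Where it leaves 1 library in a group, that library is taken to vary like the others of its table. Nearly every gene of the ESC knockdown table was called, so the unchanged count with KD in ESCs is no check particular to the members.

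With the replicate block the count of members whose KD effect differed between p53 KO ESCs and ESCs was 0 in place of 5, that of KD in EZH2 KO ESCs was 6 and that of CX-5461 was 24. In p53 KO ESCs same-numbered KD and control libraries deviated in opposite directions (correlation -0.26), and the crossed pairing gave 2 calls in place of 0. No paired analysis was possible for ActD and CHX because their columns carry numbers that no 2 groups share. The number of libraries limits the precision throughout, and low genes are affected most by the pseudocount and the filter.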
